A study of Mus musculus with 4 samples.

Results

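Elastin and 9 genes whose products build, anchor or crosslink the elastic fibre were followed in the leaflets of the aortic and pulmonary valves of newborn mice with and without the chemokine receptor Cxcr7. The genes were Eln, Fbn1, Fbn2, Fbln5, Efemp2, Lox, Loxl1, Emilin1, Mfap4 and Mfap5, and a probe set counted as a member when the array annotation tied it to 1 of these symbols and to no other gene. This gave 16 of the 45037 non-control probe sets, covering 8 of the 10 genes. Fbn1 and Efemp2 had no annotated probe set and were not analysed here. RNA came from 2 pools of Cxcr7-/- neonates and 2 pools of Control neonates, which are wildtype littermates, with 3 animals and 1 Affymetrix array per pool. The labels describe the pools as biological replicates and give neither strain nor day of age. Both semilunar valves of each animal were taken, with 4 to 6 leaflets per mutant and 6 per wildtype, so the mutant pools could hold fewer leaflets. Each pool supplied 50 ng of total RNA, which went through 2 rounds of amplification.

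Elastin is secreted as the soluble monomer tropoelastin and becomes an insoluble, elastic polymer outside the cell. Fibulins and emilins bring tropoelastin to a scaffold of fibrillin microfibrils, and copper-dependent lysyl oxidases join its lysines into crosslinks. In semilunar valves elastic fibres lie mainly in the layer facing the ventricle and let the leaflet recoil when the valve opens and closes, and most of the elastin of a healthy fibre is laid down around birth and in early life.

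The pools were first compared for their labels and quality. Cxcr7, listed as Ackr3, read 28.3 and 328 in the mutants against 4936 and 5698 in the controls, so the targeted transcript was low in both pools labelled as mutant. These are called mutants below, and the Control pools controls. The arrays had median signals of 84.5 to 110. The 3'/5' signal ratio of the Actb control probes rises as transcripts shorten. It was 11.7 to 15.5 in the mutants and 19.1 to 20.2 in the Control pools, so it moved with genotype. The same ratio of the Gapdh control probes hardly separated the genotypes, at 12.6 in Cxcr7-/- pool 1 and 12.7 in Control pool 1. The Gapdh ratio was lowest in Cxcr7-/- pool 2 and highest in Control pool 2, at 24.2. The part of either ratio in the results was not tested. Interstitial cell and fibroblast markers of the leaflet were present, with decorin (Dcn) at 48668 to 68440 and vimentin (Vim) at 41132 to 61586 in the 4 pools. Heart muscle markers were present too, and the regulatory light chain Myl2 read 17957 to 35920.

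Elastin stood at less than 1/2 of its Control signal in both mutant pools, and lysyl oxidase was lower at the brightest of its probe sets but not at the second one tested, while the fibulin, emilin and microfibril-associated glycoprotein genes with the brightest probe sets read close to Control. Of the 16 member probe sets, 14 passed the filter on low signal. Both mutant pools lay below both Control pools for 6 of these 14 and above them for 1, and the genotypes overlapped for the other 7. Across all 22518 probe sets tested, 22.3% had both mutant pools below and 20.1% had both above, together 42.4%. Of the 14, 10 had a negative log2 fold change, where 51.8% of all probe sets tested did. At an unadjusted p under 0.05 from limma there were 3 member probe sets, all lower (2 of Eln and 1 of Lox), where 6.18% of all probe sets tested were lower at that level. The dimmer Eln probe set, counted among the 6 and the 3, passed the filter through its Control signal. Its place in these counts is therefore no support for a decrease, and the 2 Eln probe sets read 1 transcript. No member passed the Benjamini-Hochberg threshold of 0.05, and neither did any other probe set (0% of 22518, smallest adjusted p = 0.400; by unadjusted p, 2279 or 10.1% were under 0.05), so the differences below are values and not calls. The median log2 fold change was -0.14 over the 14 probe sets and -0.02 over all probe sets tested. In these whole-leaflet samples, fewer cells of a type and less RNA per cell cannot be told apart.

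**Figure D1:**
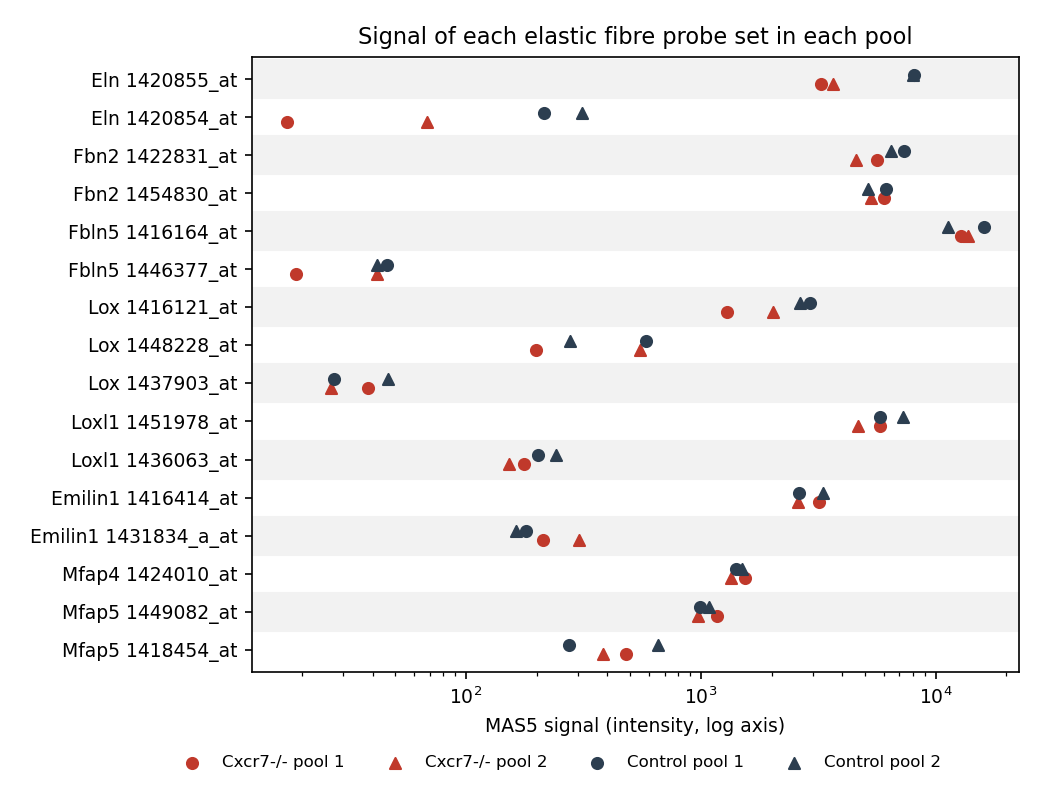
Signal of the 16 member probe sets (rows) in each of the 4 pools on a log axis; red symbols are Cxcr7-/- pools and dark symbols Control pools, with circles for pool 1 and triangles for pool 2. The Eln probe set 1420855_at shows the mutant pools at 3250.1 and 3648 and the Control pools together at 8101 and 8029, while the rows of Fbln5, Mfap4 and Mfap5 show the genotypes mixed.

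Elastin (Eln), the core of the fibre, was measured by 2 probe sets. The brighter one, 1420855_at, read 3250.1 in Cxcr7-/- pool 1 and 3648 in pool 2, against 8101 and 8029 in Control pools 1 and 2. The Control pools were nearly equal (a ratio of 1.01 between them), the mutant pools differed by a factor of 1.12, and the smallest of the 4 cross comparisons was 2.20-fold. The mean signal of the mutant pools was 42.8% of Control, and the log2 fold change of Cxcr7-/- minus Control was -1.22 ± 0.22 (SE, n = 2 and 2 pools, 95% interval -1.73 to -0.71, limma adjusted p = 0.400). By unadjusted p (0.000567) Eln ranked 31st of the 22518 probe sets, and by size of the decrease 524th. It was among the 0.773% of probe sets that were at least 2-fold lower in all 4 cross comparisons on the log2 scale used here.

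The second elastin probe set, 1420854_at, was dim and pointed the same way. It read 17.3 and 68.3 in the mutants and 214 and 313 in the controls, with no overlap. The mutant pools differed from each other by a factor of 3.96, so the size of the decrease is poorly fixed. Its log2 fold change was -2.24 ± 0.51 (adjusted p = 0.406), and it was -2.91 with no pseudocount and -1.44 with one 4 times larger. Its mean over the pools was just above the filter, which it passed through its Control signal, so its place among the tested probe sets is no support for the decrease. Both probe sets carry the same source accession in the annotation, so they are separate readings of 1 transcript and not of separate genes.

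Of the crosslinking enzymes, lysyl oxidase (Lox), which oxidises lysines of elastin and collagen, was lower in both mutant pools at its brightest probe set. That probe set, 1416121_at, read 1291 and 2022 in the mutants and 2903 and 2641 in the controls. The genotypes did not overlap, and the mutant mean was 59.8% of Control. The log2 fold change was -0.77 ± 0.29 (95% interval -1.44 to -0.10, adjusted p = 0.459). Cxcr7-/- pool 1 carried much of the difference, since the log2 fold change was -0.45 without that pool and -1.09 without Cxcr7-/- pool 2. A second Lox probe set, 1448228_at, did not separate the genotypes. It read 198 and 552 in the mutants against 582 and 276, and its log2 fold change of -0.25 ± 0.53 became 0.44 without Cxcr7-/- pool 1 and 0.25 without Control pool 1. The third Lox probe set, 1437903_at, read 26.6 to 46.3 in all pools and was below the filter.

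Lysyl oxidase-like 1 (Loxl1), the family member known for its need in elastic fibre upkeep, differed less. The probe set 1451978_at read 5766 and 4687 in the mutants against 5769 and 7265 in the controls. The genotypes were separated here by a gap of a few units of signal, and they overlapped after median centring of the arrays. Its log2 fold change was -0.32 ± 0.24 (95% interval -0.87 to 0.24). The dimmer 1436063_at read 177 and 152 against 202 and 241, at -0.39 ± 0.35, and overlapped under both median centring and quantile normalization. The sign was negative for both Loxl1 probe sets under each scaling tried.

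The microfibril scaffold was represented by fibrillin 2 (Fbn2), the fibrillin most prominent in fetal microfibrils. Its probe set 1422831_at read 5606 and 4568 in the mutants and 7323 and 6428 in the controls. The genotypes did not overlap, with a mutant mean at 74.0% of Control and a log2 fold change of -0.44 ± 0.23 (95% interval -0.97 to 0.10, adjusted p = 0.563). The other Fbn2 probe set, 1454830_at, read 6011 and 5293 against 6129 and 5134. There the genotypes overlapped and the log2 fold change was 0.01 ± 0.23, so the probe sets of this gene do not give 1 answer.

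The microfibril-associated proteins showed no separation of the genotypes. Mfap4, a fibrinogen-domain glycoprotein that binds tropoelastin and fibrillin, read 1537 and 1347 in the mutants against 1412 and 1495 in the controls. Its log2 fold change was -0.01 ± 0.25, and the 95% interval of -0.60 to 0.57 leaves room for a difference in either direction. Mfap5 (MAGP-2), a small microfibril component, read 1177 and 974 against 994 and 1078 at its brighter probe set 1449082_at, where the log2 fold change was 0.05 ± 0.27. Its dimmer probe set 1418454_at read 480 and 385 against 275 and 655, so the Control pools enclosed the mutant ones.

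The proteins that carry tropoelastin onto the microfibril were also near Control. Fibulin 5 (Fbln5), which binds tropoelastin, cell-surface integrins and Loxl1, read 12858 and 13716 in the mutants against 16001 and 11317 in the controls at 1416164_at. The Control pools lay on either side of the mutant pools, and the log2 fold change was -0.02 ± 0.24 (95% interval -0.57 to 0.53). The other Fbln5 probe set, 1446377_at, read 18.8 to 46.1 and was below the filter. Emilin1, a glycoprotein at the border of elastin and microfibrils, read 3181 and 2602 against 2606 and 3312 at 1416414_at, at -0.03 ± 0.26. Its dimmer probe set 1431834_a_at was the 1 member probe set with both mutant pools above both Control pools, at 212 and 303 against 180.0 and 163 (log2 fold change 0.51 ± 0.36, 95% interval -0.31 to 1.33). The signs of Fbln5, Emilin1 (1416414_at) and Mfap4 turned positive under median centring, so no direction is given for them.

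**Figure D2:**
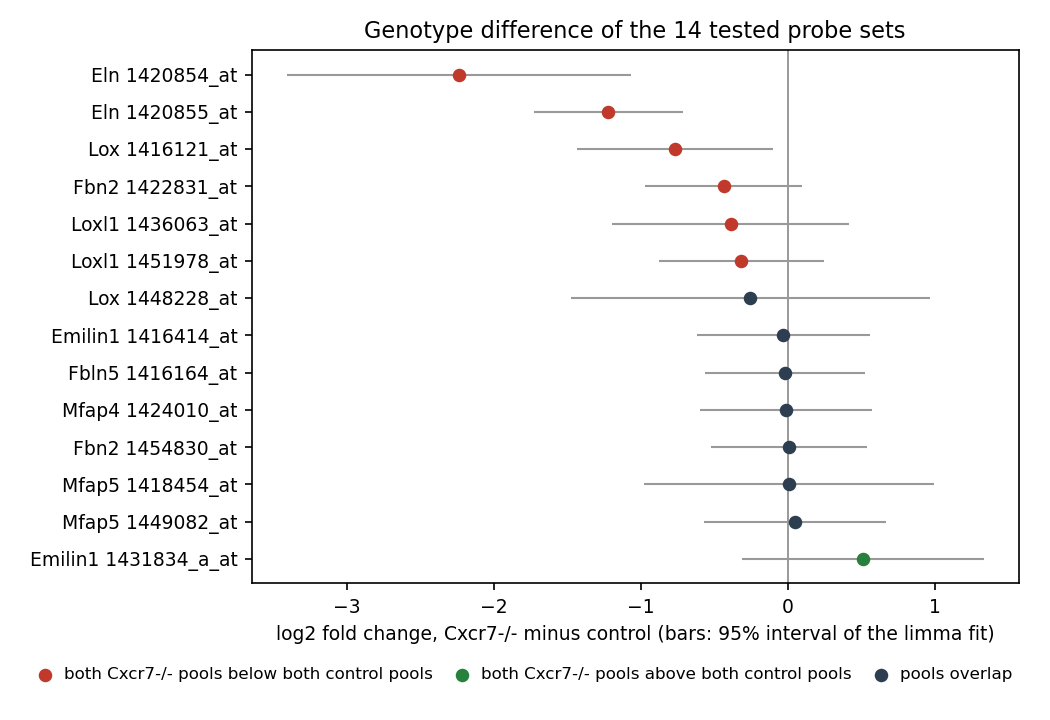
Log2 fold change of Cxcr7-/- minus Control for the 14 member probe sets above the filter (points, coloured by whether the pools separate), with the 95% interval of the limma fit as bars. Both Eln probe sets (-2.24 and -1.22) and Lox 1416121_at (-0.77) have unadjusted intervals below 0, and the other 11 intervals include it.

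Elastin was then set against each of its partners within the same array, with 1 probe set per gene (the one with the highest mean). This ratio is untouched by any scaling factor of an array apart from the small pseudocount. The log2 ratio of Eln to the partner was lower in both mutant pools than in both Control pools for each of the 7 partners. The mean difference was largest against Mfap5 at -1.27 ± 0.23 (SE from 2 and 2 pools), followed by Mfap4 at -1.21 ± 0.18, Fbln5 at -1.20 ± 0.25, Emilin1 at -1.19 ± 0.29, Loxl1 at -0.91 ± 0.29, Fbn2 at -0.79 ± 0.25 and Lox at -0.45 ± 0.24. The 7 ratios share the same 4 Eln values and are not independent of each other. Against Lox the gap was narrow, with -0.22 and -0.69 in the mutants and -0.06 and 0.06 in the Control pools. The exact two-sided permutation p was 0.333 for each ratio, the smallest that 2 pools against 2 can give, so none of these differences could pass a threshold of 0.05.

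**Figure D3:**
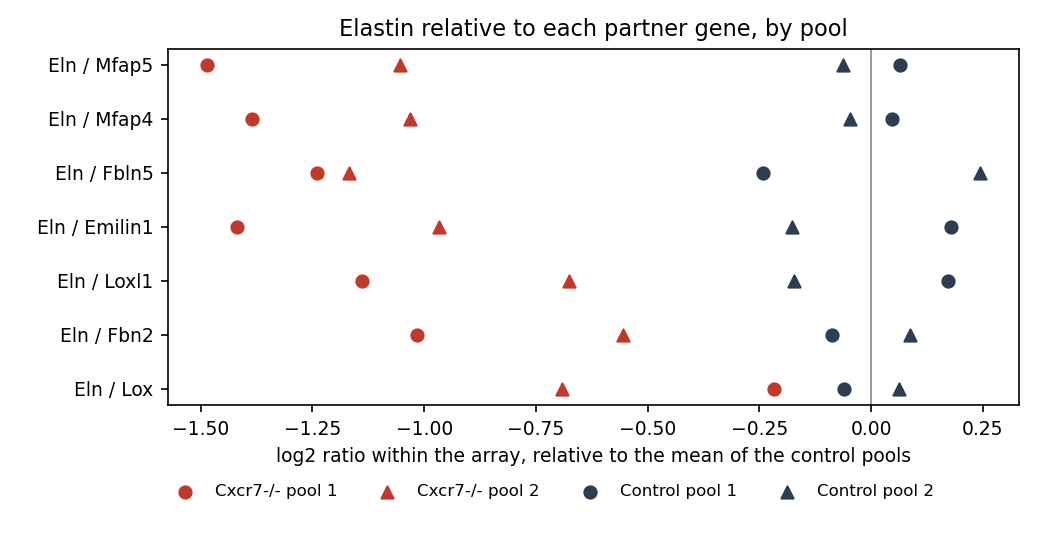
Log2 ratio of Eln to each partner gene within an array, shown for the 4 pools relative to the mean of the Control pools (0). The mutant pools lie to the left of the Control pools in every row, between -1.49 and -0.22, and come closest to them in the row of Lox.

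The pattern of Eln over the 4 pools was compared with that of each other gene as the root mean square difference of log2 values centred on their own mean. The partner closest to Eln was Lox, at 0.29 and rank 213 of 11259 genes, and Fbn2 followed at 0.43 and rank 1075. Loxl1, Mfap4, Fbln5, Emilin1 and Mfap5 lay between rank 1933 and rank 5344. The 5 closest genes of all were Stat5a (0.02), Btbd9 (0.05), Gxylt2 (0.06), Gm527 (0.06) and Agbl5 (0.06), none of them a gene of the elastic fibre, and with 4 pools such a closeness is only a description.

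A wider list of microfibril and elastic fibre proteins went both ways. Of 19 genes above the filter, 13 had negative and 6 positive log2 fold changes, with a median of -0.21 beside 0.0048 over all 11260 genes (1 probe set each), and none was at an unadjusted p under 0.05. Both mutant pools lay below both Control pools for 4 of the 19 and above for 2, where 2152 and 2371 of all 11260 genes did. Median centring left 11 of 19 negative, and the list median was -0.03 without Cxcr7-/- pool 2 and -0.10 without Control pool 1. The latent TGF-beta binding protein Ltbp2, a microfibril component, read 2052 and 1481 in the mutants against 2202 and 3052. Ltbp4, which assists fibulin 5 in elastin assembly, read 779 and 734 against 935 and 1010.2, a gap smaller than that of Eln. Emilin2, a relative of Emilin1, read 69.0 and 131 against 201 and 192, and the endothelial emilin-family gene Mmrn2 read 6058 and 7261 against 7810.3 and 11638. The other Mmrn2 probe sets above the filter, at -0.57, -0.35 and -0.27, all overlapped between genotypes. Higher in both mutant pools was fibulin 1 (Fbln1), an elastin-associated fibulin abundant in valve cushions. It read 4312 and 3355 against 2115 and 3106 (0.57 ± 0.28), although its other 2 probe sets above the filter were at 0.16 and 0.08. Mfap3 read 2603 and 2111 against 2070 and 1727, but its other probe set overlapped, at 2333 and 1953 against 1850 and 2250 (0.06 ± 0.26). Mfap2 (MAGP-1), the closest relative of Mfap5, overlapped between genotypes, at 3035 and 2245 against 2033 and 2646.

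Enzymes that process or crosslink fibre proteins other than Lox and Loxl1 showed little separation. Of 15 genes above the filter, 6 were negative and 9 positive (median 0.13), none at an unadjusted p under 0.05. Of all 11260 genes (1 probe set each), 2152 were lower and 2371 higher with no overlap. Bmp1, the protease that releases active lysyl oxidase from its proenzyme, was the 1 gene with no overlap, at 1899 and 1371 in the mutants against 1902 and 2062. Its other probe set above the filter pointed the opposite way, at 1.11 ± 0.41. The copper pump Atp7a, which loads lysyl oxidases with their metal, read 2635 and 3437 against 3068 and 2448. The count depended on single pools, with 3 of 15 negative without Cxcr7-/- pool 2 and 11 of 15 without Cxcr7-/- pool 1.

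Elastin-degrading proteases and their inhibitors went both ways. Of 13 genes above the filter, 5 had both mutant pools above both Control pools and 1 had both below. Of all 11260 genes (1 probe set each), 2371 were higher and 2152 lower with no overlap. At an unadjusted p under 0.05, 2 of the 13 were higher, where 3.94% of all probe sets and 442 of all 11260 genes were. Cathepsin S (Ctss), an elastolytic protease of macrophages, read 7340 and 6343 in the mutants against 4884 and 2834 (0.87 ± 0.30, adjusted p = 0.446). Timp3, a matrix-bound metalloproteinase inhibitor, read 10350 and 9878 against 7259 and 5763 (0.64 ± 0.22, adjusted p = 0.449). Its other probe sets above the filter were at 0.42, 0.30 and 0.23, and those at 0.42 and 0.23 overlapped between genotypes. The membrane metalloproteinase Mmp14 read 14963 and 14268 against 12414 and 8636 at its brightest probe set. Its other probe sets above the filter were at 1.14 ± 0.30, with no overlap, and at 0.08 ± 0.37, where the genotypes overlapped. The inhibitor Reck read 3110.1 and 3328 against 3060 and 1779. The gelatinase Mmp2 read 14793 and 11627 against 15067 and 20161 at its brightest probe set, and overlapped at another, with 15003 and 11372 against 14843 and 16016. The elastases best known from leukocytes were not among the tested genes: Mmp12 read 3.98 to 29.1 and Elane 2.45 to 73.4 in the 4 pools, below the filter.

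Genes that act on elastin transcription also went both ways. Of 22 genes above the filter, 6 had both mutant pools below both Control pools and 5 had both above, near the 22.3% and 20.1% of all probe sets tested. Of all 11260 genes (1 probe set each, as in the list), 2152 were lower and 2371 higher with no overlap. The median was -0.15 (-0.01 under median centring), and it turned positive, to 0.05, without Cxcr7-/- pool 2 and likewise without Control pool 2. At an unadjusted p under 0.05 there were 3, all lower, where 6.18% of all probe sets and 454 of all 11260 genes were. Myocardin (Myocd), the coactivator of smooth and heart muscle genes, read 166 and 494 in the mutants against 872 and 1121 (-1.70 ± 0.47, adjusted p = 0.406). Its DNA-binding partner Srf read 579 and 993 against 1211 and 1384, with a second Srf probe set at 0.04 ± 0.41. Transforming growth factor beta 3 (Tgfb3), a growth factor of a family that raises elastin output in many mesenchymal cells, read 1113 and 817 against 1454 and 1618 (-0.67 ± 0.28). Tgfb1 was dim, at 50.9 and 76.2 against 154 and 199, and passed the filter through its Control signal, so its place among the 3 is no support for a decrease. A second Tgfb1 probe set did not follow it (0.10 ± 0.50). The receptor Tgfbr1 read 3797 and 3833 against 2975 and 3449, with both mutant pools higher. Igf1, which also raises elastin in cultured cells, read 35184 and 35689 against 34386 and 23187. Of its 3 other probe sets, 2 overlapped, at 27456 and 29473 against 31850 and 20545 and at 13959 and 9574 against 11378 and 7058. Mybl2, known as a repressor of the elastin gene in proliferating cells, read 150 and 122 against 55.6 and 94.7, and overlapped at its other probe set (0.34 ± 0.46). The first of these probe sets was dim and passed the filter through its mutant signal, so its place among the 5 is no support for an increase. Klf4, a zinc finger factor, was higher at 16862 and 17241 against 10994 and 15505, but not at its second probe set (-0.03 ± 0.25).

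Markers of other cell types moved with genotype beside elastin. Smooth muscle cells of the arterial wall are a major source of elastin, and of 21 smooth muscle genes above the filter 16 were negative (10 of them with no overlap) and 5 positive (3 with no overlap), with a median log2 fold change of -0.36. Of all 11260 genes (1 probe set each), 2152 were lower and 2371 higher with no overlap, and the list median was -0.23 without Cxcr7-/- pool 1. Among the 10 lower genes with no overlap, Pln is also counted in the heart muscle list below and Myocd in the elastin transcription list above. These lists are therefore not independent of each other. The summed signal of the 23 smooth muscle genes with a probe set was 48122 and 61301 in the mutants against 68149 and 84770 in the controls. Actin alpha 2 (Acta2) read 10905 and 14429 against 16337 and 22391, and transgelin (Tagln) 3042 and 2856 against 4377 and 5355. Caldesmon (Cald1), also among the brightest, overlapped at 8268 and 11665 against 8996 and 12015, and gamma 2 actin (Actg2) was higher in both mutant pools, at 567 and 541 against 299 and 325. The defining smooth muscle myosin Myh11 was near the floor, at 9.61 and 50.1 against 177 and 64.2, and was below the filter. Between the Control pools, Acta2 differed by a factor of 1.37, Cald1 by 1.34, Tagln by 1.22, Actg2 by 1.09 and Eln by 1.01. The part of smooth muscle content in the elastin difference was not tested.

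Of 30 heart muscle genes, 30 had negative log2 fold changes with a median of -0.86, 20 of them with no overlap and none past the adjusted threshold. Of all 11260 genes (1 probe set each), 2152 were lower and 2371 higher with no overlap. The median was -0.48 without Cxcr7-/- pool 1 and -0.50 without Control pool 2, with 29 and 27 of 30 negative. Their summed signal was 125400 and 181910 against 220700 and 327540. Macrophage genes above the filter were higher, with 18 of 18 positive and a median of 0.88. Aif1, 1 of these 18, was dim and passed the filter through its mutant signal, so its place there is no support for an increase. Itgam was near the floor and below the filter, at 1.83 and 6.61 against 3.85 and 19.4. The summed signal of the 19 macrophage genes with a probe set was 25583 and 22537 in the mutants against 16146 and 13401 in the controls. Interstitial and fibroblast genes, markers of the main matrix-producing cells of the leaflet, had 13 of 20 positive and a median of 0.20. Their sum was 367410 and 384810 in the mutants against 387540 and 268120, and without Control pool 2 only 7 of 20 were positive. Endothelial genes had 14 of 20 negative (10 of them with no overlap) and 6 positive (1 with no overlap), with a median of -0.11. At an unadjusted p under 0.05 from limma, 5 of the 20 were lower and 0 higher, where 454 and 442 of all 11260 genes were. Robo4, 1 of these 5, was dim and passed the filter through its Control signal, so its place there is no support for a decrease. Median centring left 9 of 20 negative, with a median of 0.03. Mesothelial genes had 6 of 10 negative, with 2 lower and 2 higher with no overlap, and 3 of 10 negative without Cxcr7-/- pool 1. At an unadjusted p under 0.05 from limma, 2 of the 10 were lower and 0 higher. Erythroid genes (5 with a probe set, 2 above the filter) showed the genotypes overlapping. What part the muscle and macrophage content has in the elastic fibre values was not tested.

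**Figure D4:**
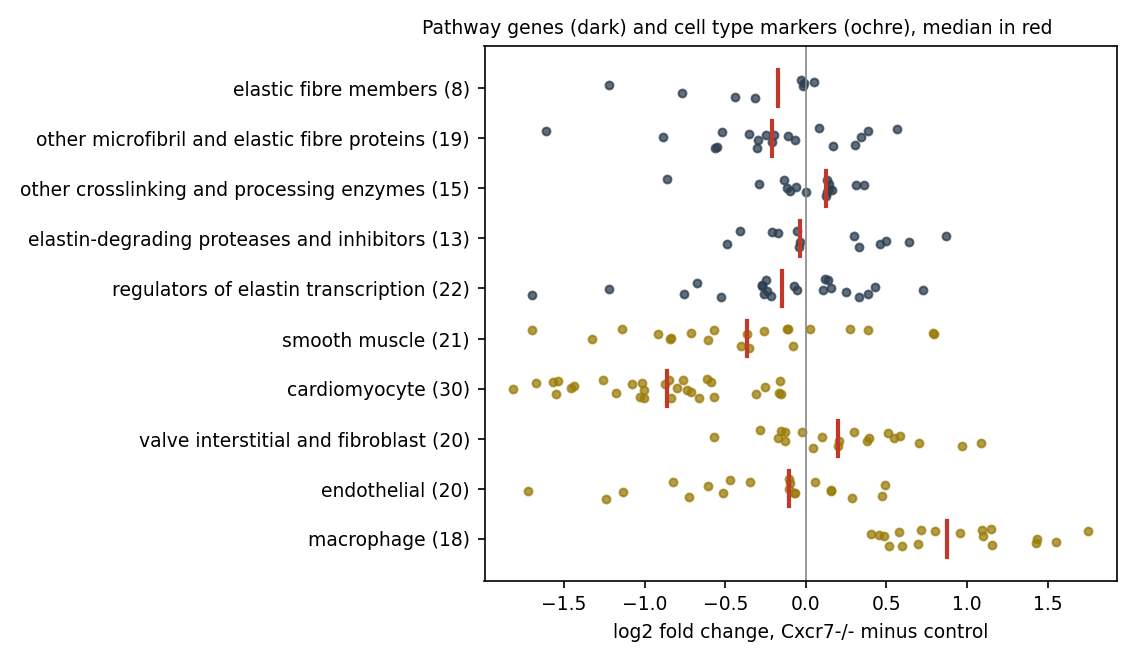
Log2 fold change of Cxcr7-/- minus Control for each gene above the filter (points, 1 probe set a gene; vertical scatter has no meaning) in 5 lists of elastic fibre biology and 5 lists of cell type markers, with the number of genes in brackets and the list median as a red line. The medians of the fibre lists lie between -0.21 and 0.13, those of the heart muscle and macrophage markers at -0.86 and 0.88.

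The elastin value varied little with the processing. Over the changes of pseudocount, filter, scaling and variance model the log2 fold change of 1420855_at stayed between -1.25 and -1.08. With 1 pool left out it was -1.31 to -1.14. Its adjusted p did cross the threshold once: it was 0.0285 without Control pool 1, and 0.121 without Control pool 2, 0.501 without Cxcr7-/- pool 2 and 1 without Cxcr7-/- pool 1. The fit without Control pool 1 called 673 probe sets in all, so that call is shared with a large number of other genes.

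**Figure D5:**
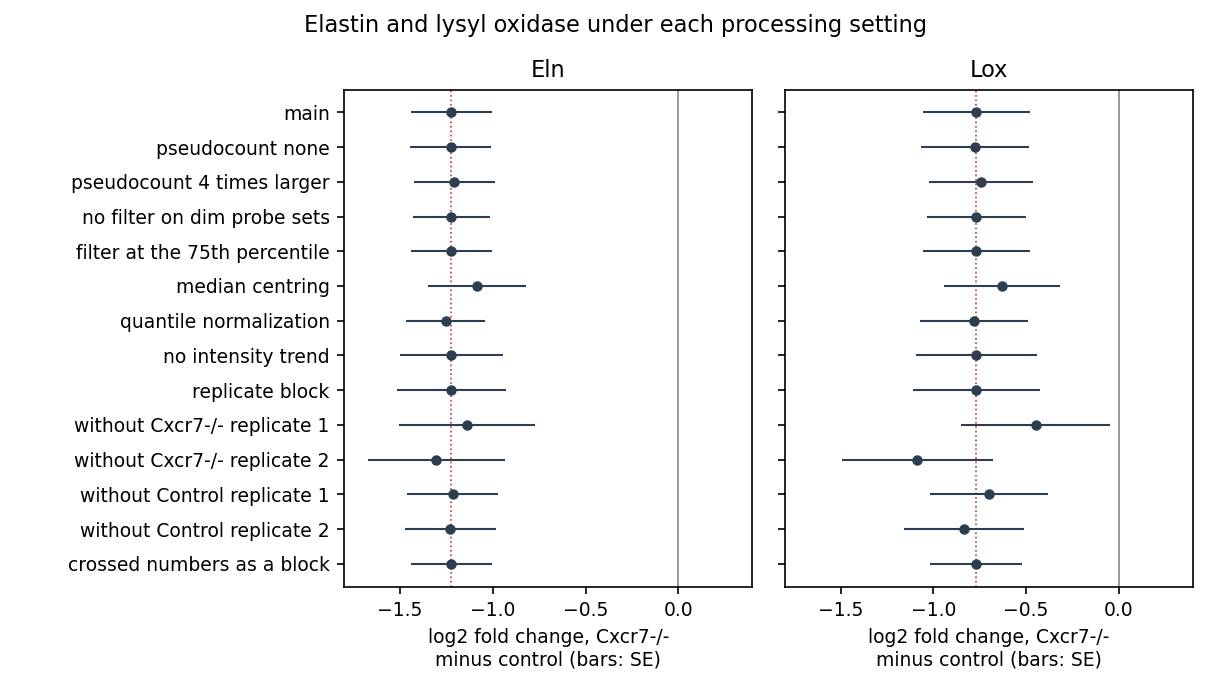
Log2 fold change of Cxcr7-/- minus Control for Eln (1420855_at, left) and Lox (1416121_at, right) in the fit reported here (top row, dotted line) and under each other setting, with the standard error of the fit as bars. Eln stays between -1.31 and -1.08, while Lox ranges from -1.09 to -0.45 with the mutant pool that is left out.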

How the data were processed

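The deposited values are linear signal intensity, 1 per probe set and array. Per the submitters' processing notes they were made with Affymetrix Expression Console and MAS5, which subtracts local background, which leaves dim probe sets with large relative errors. Their versions, detection calls and genome build were not given in the sources used here. The trimmed mean of each array was 500.003. The number of arrays, 2 per genotype, limits the precision.

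Signals were taken as log2(signal + 22), 22 being the rounded 25th percentile of all non-control values, with no further normalization. The 22518 probe sets with a mean above the median were fitted with limma 3.58.1 in R 4.3.3 (lmFit, then eBayes with a trend on intensity). Tests were two-sided, and p-values were adjusted by Benjamini-Hochberg over all of them at a threshold of 0.05. The fit was tested on simulated data. Fold changes are on this log2 scale, which understates changes of dim probe sets. For lists, each gene was represented by its brightest single-symbol probe set on average. Symbols were updated through gene identifiers. Levels were not compared between genes, since probes differ in response.

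Members and lists were chosen with earlier results of these data known. Named were all members, up to 4 non-overlapping genes per direction of each pathway list by unadjusted p, and, of the 3 brightest markers of each cell type, those a result turned on. Mfap2, Atp7a, Mmp12, Elane, Tagln, Actg2, Myh11, Robo4, Aif1 and Itgam were added after their values were seen. No promoter of Eln and no protein sequence was used here.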

Additional observations from a re-analysis of the deposited data

How the results depend on the processing

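The signs of both Eln probe sets, Lox 1416121_at, Fbn2 1422831_at, both Loxl1 probe sets and Emilin1 1431834_a_at held under all alternatives run. Eln 1420855_at ranged from -1.31 to -1.14 with 1 pool left out, and its other probe set gave -2.24. The sign of the members near 0 was not fixed. Under median centring Fbln5 was at 0.12, Emilin1 1416414_at at 0.11 and Mfap4 at 0.12. Fbn2 1454830_at was at -0.030 under quantile normalization, and Mfap5 1418454_at at -0.0031 with the larger pseudocount. With 1 pool left out, Fbn2 1454830_at ranged from -0.12 to 0.14, Fbln5 from -0.27 to 0.23, Lox 1448228_at from -0.95 to 0.44, Emilin1 1416414_at from -0.20 to 0.14 and Mfap4 from -0.11 to 0.080. Mfap5 ranged from -0.085 to 0.18 (1449082_at) and from -0.58 to 0.61 (1418454_at). The count of non-overlapping member probe sets was 4 with the filter at the 75th percentile, which tests fewer of them, and 10 to 11 with 1 pool left out, where fewer pools have to separate.

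Probe sets past the adjusted threshold numbered 0 to 673 with 1 pool left out (673 without Control pool 1, 8 without Cxcr7-/- pool 2); the cause was not tested. Median centring moved the median difference of all probe sets from -0.04 to 0.09 and the share of lower ones at an unadjusted p under 0.05 from 61% to 36.3%; quantile normalization gave 52.6%. No label ties the pool numbers across genotypes, and deviations of same-numbered pools correlated at -0.26 across probe sets. With the number as a block Eln 1420855_at was at -1.22 ± 0.29 (adjusted p = 0.527), and the block made 0 calls. A block on crossed numbers, added after seeing the data, made 5 calls. Counts of list genes without Control pool 2 were also added then: 4 of 13 protease and inhibitor genes were negative there, against 7 with all pools, and 13 of 20 interstitial genes, against 7.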
